A study of Rattus norvegicus with 3 samples.

Results

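The genes described here load transfer RNAs with amino acids, make non-essential amino acids and carry amino acids into the cell. They are 41 genes chosen by name as a gene set, out of 26140 gene names on the array: 20 cytosolic aminoacyl-tRNA synthetase genes, 14 genes of amino acid synthesis and 7 amino acid transporter genes. A probe belonged to the set where its gene name in the scanner files was a member or a former or present symbol of it. All 41 genes had a probe (52 probes in all), and 18 of them now carry a different symbol, such as Aars1 for Aars. The rule uses gene names and no measured value, although the genes were put together with earlier results of these data known.

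The samples came from ROS17/2.8, a clonal rat osteosarcoma line that is labelled as osteoblast and studied for its bone-forming properties. Confluent cultures were kept in a mineralization medium with ascorbate phosphate and β-glycerophosphate. The 3 groups were cells given polyphosphate, a linear chain of orthophosphate residues, at a high dose (1 mg/ml, 24 h), cells given a low dose (0.01 mg/ml, 24 h), and control cells without polyphosphate, for which the labels give no time. Each group was 1 single-colour Agilent array from 1 sample of this line, so no difference has a replicate check and no test between conditions was possible.

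Cytosolic aminoacyl-tRNA synthetases join each amino acid to its transfer RNA, the step that supplies charged tRNA to the ribosome. When charged tRNA runs short, the kinase GCN2 (gene Eif2ak4) phosphorylates the initiation factor eIF2α, and translation of the transcription factor ATF4 increases. In mouse and human cells ATF4 induces many synthetases, the serine, asparagine and proline synthesis enzymes and several transporters, through response elements in their genes. In osteoblasts, which secrete large amounts of collagen rich in glycine and proline, ATF4 is known for its part in amino acid import.

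The element that ATF4 and its C/EBP partners bind has the core TGATGNAA, most often TGATGCAA, and the promoter windows used here that hold TGATGCAA are shown first because all 6 synthetases among them belong to the set reported as ATF4-induced in mouse and human cells. That set was drawn up from general knowledge of such studies. Each line is 30 bases of rat sequence from RefSeq (GRCr8), on the strand that reads TGATGCAA, with that core in capitals.

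Cars, chr1:208225334-208225363, plus strand: tttccagaatcTGATGCAAccgcggcgccg

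Iars, chr17:15193658-15193687, plus strand: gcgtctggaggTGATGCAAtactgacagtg

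Mars, chr7:65023752-65023781, plus strand: ggagcccacgcTGATGCAAccggaacgggc

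Nars, chr18:60275778-60275807, minus strand: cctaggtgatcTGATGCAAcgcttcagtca

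Tars, chr2:62114811-62114840, plus strand: agctaaccagcTGATGCAAcgggacgccag

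Yars, chr5:146820183-146820212, plus strand: cggagctacgagctcagcTGATGCAAcctg

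Got1, chr1:252330020-252330049, plus strand: ggaggcttgtaTGATGCAAccaatgcagtg

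Pycr1, chr10:106420925-106420954, minus strand: ggtcctgtgtaTGATGCAAtgtacaaggct

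Slc1a4, chr14:98761779-98761808, plus strand: tgctggctggaTGATGCAAcgctggaggcg

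The core lay before the annotated start in 7 of these genes and after it in Cars and Yars. It stood 14 bases before the start in Nars, 17 in Mars, 24 in Iars and 27 in Tars, and 235 bases before it in Slc1a4.

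Signals are given after each array was rescaled to the same 75th percentile, and the error marked ± is a spot error. It is the error of a log2 ratio that follows from the scatter of repeat spots on an array, and it leaves out culture, labelling and biological differences. A gene was called where the 2 arrays differed by at least 1.2-fold and by more than 2 spot errors. Of the 41 members, 38 were well above background on all 3 arrays and 3 (Cth, Cbs and Slc7a3) on none. Over all 30367 probes the share well above background was 57.2% in control, 56.6% in low dose and 55.9% in high dose cells, and no spot was saturated. Of 9 osteoblast markers, 7 were well above background on all 3 arrays, namely Runx2, Sp7, Alpl, Ibsp, Bglap, Col1a1 and Spp1, while Phex and Dmp1 were not. So were 3 of 5 chondrocyte, 2 of 5 adipocyte, 3 of 5 macrophage, 3 of 5 endothelial, 4 of 5 muscle and 1 of 4 epithelial markers. Of these 16 markers of other cell types, Pecam1 (0.42 ± 0.14) and Krt8 (0.27 ± 0.08) were called higher for high dose over control. Aif1 (-0.57 ± 0.25), Hapln1 (-0.34 ± 0.14) and Vwf (-0.28 ± 0.13) were called lower. Over all genes the shares called higher and lower were 4.21% and 4.63% for high dose over control. For low dose over control Sox9 (0.41) and Cd68 (0.39) were called higher and Csf1r (-0.37) lower. For high over low dose Csf1r (0.88) and Pecam1 (0.40) were called higher and Sox9 (-0.52) and Hapln1 (-0.57) lower. The shares over all genes were 1.33% and 1.75% for low dose over control, and 3.8% and 3.08% for high over low dose. The summed signal of the 16 was 9716 in control, 10068 in low dose and 10276 in high dose cells. Cfd alone, the largest part of that sum, read 6331 in control, 6692 in low dose and 7045 in high dose cells. The chondrocyte (541 to 489) and muscle (2108 to 1974) sums were lower in high dose than in control cells. The adipocyte, macrophage, endothelial and epithelial sums were higher. The lists' other genes (Acan, Col2a1, Adipoq, Lpl, Plin1, Ptprc, Adgre1, Kdr, Tek, Myod1, Epcam, Krt18 and Cdh1) were not well above background on any array. No osteoblast marker was called. Their median was -0.13 for high dose over control, with 2 of 7 above 0. Spp1 (0.26 ± 0.02) lay just below the 1.2-fold limit in that comparison. Centring on the median, or on the 75th percentile of probes well above background, gave 1 osteoblast marker called higher there. The part of cells of other types in the members' values was not tested.

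At the high dose the gene set as a whole lay close to the control. The median log2 ratio of high dose over control was -0.00012 over the 38 measured members, with 19 above 0 and 19 below, against a median of -0.01 over all 14503 measured genes. Gpt2 and Slc1a4 were called higher and Pycr1 was called lower. Those 2 higher and 1 lower calls stood among 38 members, where 4.21% of all measured genes were called higher and 4.63% lower. In 23 of the 38 members (60.5%) the high dose lay within 0.1 log2 of the control. The same held for 48.2% of all measured genes and for 60.9% of the brighter genes, those with at least the median level, where 31 of the 38 members lay. Among the brighter genes 2.4% were called higher and 2.54% lower for high dose over control. Because RNA came from whole cultures, fewer cells expressing a gene and less of its RNA per cell cannot be told apart.

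At the low dose no member was called, while 1.33% of all 14629 measured genes were called higher and 1.75% lower than the control. Among the brighter genes these shares were 0.725% and 0.506%. The median of the members was -0.01 (15 above 0 and 23 below), and 32 of the 38 (84.2%) lay within 0.1 log2 of the control, against 81.6% of the brighter genes. Between the doses, Dars was called higher at the high than at the low dose and no member was called lower, with 3.8% of all genes called higher and 3.08% lower. Among the brighter genes these shares were 1.64% and 1.66%. The members' log2 ratios had a standard deviation across genes of 0.14 for high dose over control, 0.08 for low dose over control and 0.11 for high over low dose. The brighter genes had 0.13, 0.09 and 0.12 in that order, and the members' root mean square spot error was 0.07. In 34 of the 38 measured members no comparison gave a call, and the matching share over all genes was not counted. The plot of the members shows these ratios gene by gene.

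**Figure D1:**
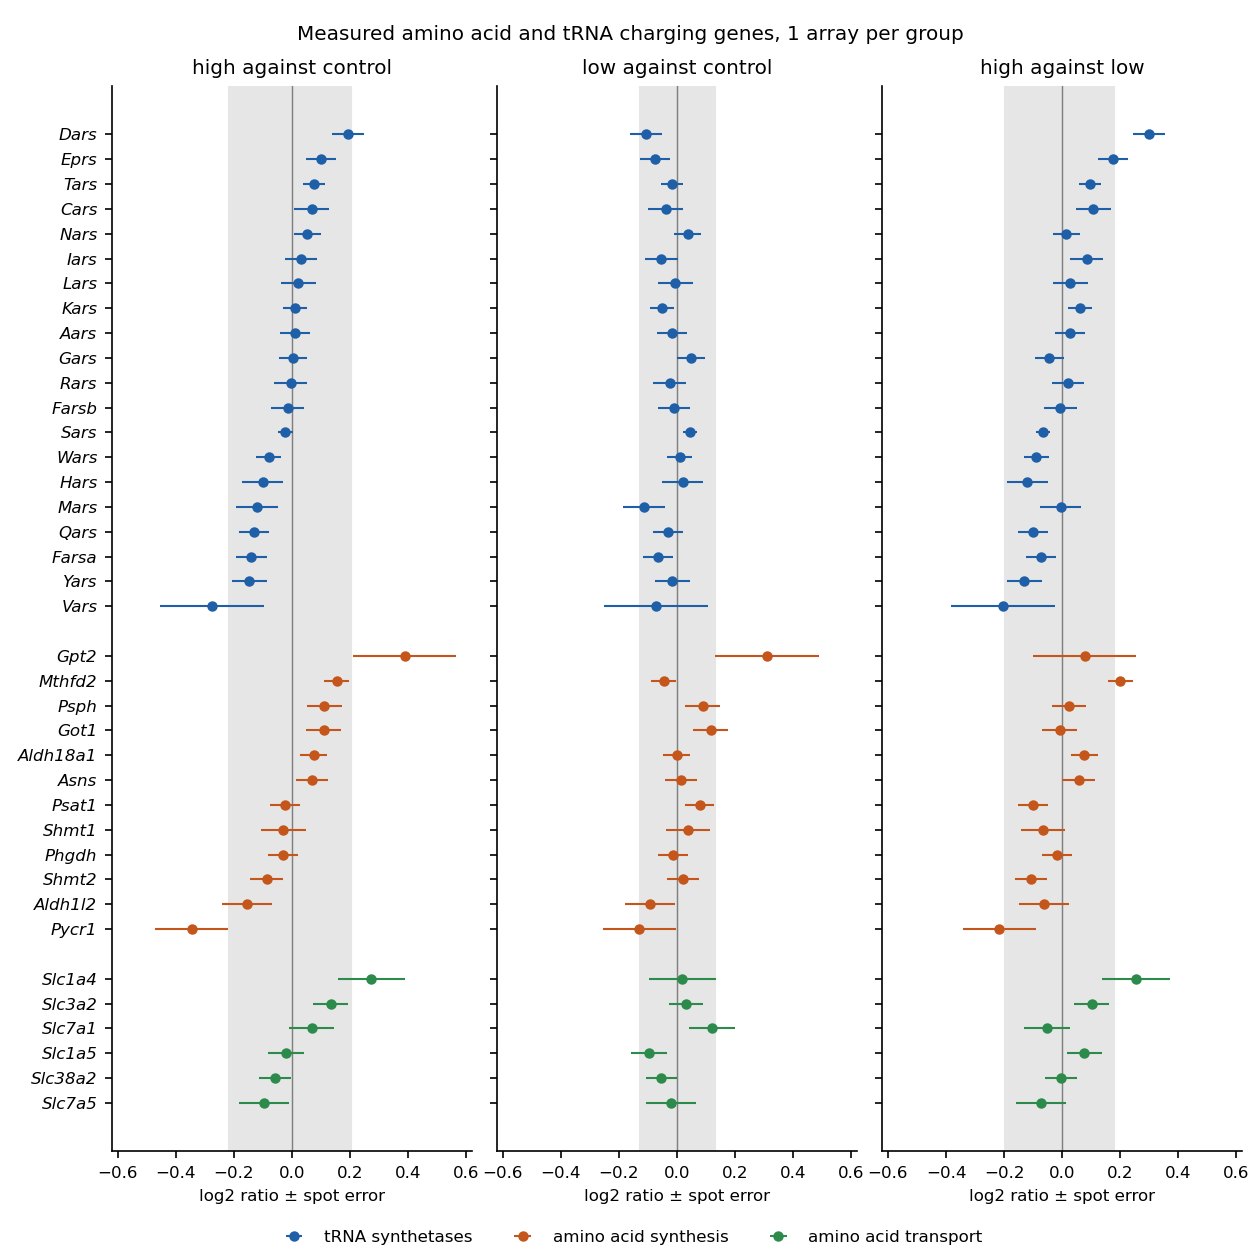
Log2 ratio of each measured member in 3 comparisons (high dose over control, low dose over control, high over low dose), with bars of 1 spot error, for synthetases (blue), synthesis genes (orange) and transporters (green). The grey band spans the 5th to the 95th percentile of the brighter genes. For high dose over control Gpt2, Slc1a4, Pycr1 and Vars, all dim, lie outside it. Over all measured genes those percentiles are -0.32 and 0.32, and Slc1a4 (0.27) and Vars (-0.27) lie within them.

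The 20 synthetases were centred on the control at the high dose: their median was -0.00012, 10 lay above 0 and 10 below, and none was called. The highest were Dars, Eprs and Tars, which charge aspartate, glutamate with proline, and threonine. The lowest were Vars, Yars and Farsa, which charge valine, tyrosine and, as the α subunit, phenylalanine. At the low dose their median was -0.02, with 5 above 0 and 15 below, and the values ran from -0.11 to 0.05.

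Dars, the aspartyl-tRNA synthetase, was the synthetase with the largest ratio above 0 and the 1 member called between the doses. Its probe (rn4 chr13:41077410-41077469, minus strand) had 2 spots on each array, which read 4067 and 3645 in control cells, 3677 and 3480 in low dose cells and 4231 and 4580 in high dose cells. Both high dose spots lay above all 4 others, and the low dose and control spots overlapped. Its log2 ratio was 0.30 ± 0.05 for high over low dose, 0.19 ± 0.05 for high dose over control and -0.11 ± 0.05 for low dose over control. Dars was thus called against the low dose, and was below the 1.2-fold limit against the control.

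Eprs, the bifunctional synthetase for glutamate and proline, read 10000.3 in control cells, 9492 in low dose cells and 10722 in high dose cells. Its log2 ratio was 0.10 ± 0.05 for high dose over control and 0.18 ± 0.05 for high over low dose. Tars read 8466 in control, 8359 in low dose and 8935 in high dose cells. Its log2 ratio was 0.08 ± 0.04 for high dose over control, from 2 probes that gave 0.03 and 0.12. Neither gene was called in any comparison.

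Vars had the lowest ratio of the synthetases, -0.27 ± 0.18 for high dose over control, from 1 spot on each array: 150.2 in control cells, 143 in low dose cells and 124 in high dose cells. That difference was under 2 spot errors and was not called. Yars read 1687 in control, 1667 in low dose and 1523 in high dose cells (-0.15 ± 0.06 for high dose over control). Farsa read 11972 in control cells, 11440.0 in low dose cells and 10872 in high dose cells (-0.14 ± 0.05 for high dose over control). Both differed by more than 2 spot errors and by less than 1.2-fold.

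The other 14 synthetases lay between -0.13 (Qars, glutamine) and 0.07 (Cars, cysteine) for high dose over control. Qars read 9836 in control, 9631 in low dose and 8988 in high dose cells. Cars read 1617 in control, 1574 in low dose and 1696 in high dose cells. Both were called in no comparison. Mars, which charges methionine and the initiator tRNA, had 1 spot on each array, 32293 in control, 29851 in low dose and 29740.0 in high dose cells. Both dose arrays were thus below the control by a similar amount for Mars (-0.12 ± 0.07 at the high and -0.11 ± 0.07 at the low dose).

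For high dose over control the alanyl, glycyl and arginyl synthetases had the ratios nearest to 0. Aars read 14831 in control, 14671 in low dose and 14939 in high dose cells. Gars read 8768 in control, 9068 in low dose and 8794 in high dose cells. These Gars values are geometric means of 2 probes, which read 56727 and 1355 in control cells. Rars read 6153 in control, 6045 in low dose and 6134 in high dose cells. All 3 high dose values thus lay within 1 spot error of the control. Farsb, the β subunit of the phenylalanine enzyme, read 8062 in control, 8011 in low dose and 7980.02 in high dose cells. Kars, for lysine, read 2714 in control, 2620.34 in low dose and 2735 in high dose cells. Lars, for leucine, read 1639 in control, 1632 in low dose and 1664 in high dose cells.

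Sars, the seryl-tRNA synthetase, was the best measured of the synthetases, with 10 spots on each array. Its lowest, median and highest spots were 4077, 4341 and 4405 in control cells, 4259, 4440.4 and 4591 in low dose cells, and 4096, 4235 and 4483 in high dose cells. The spots of all 3 arrays overlapped, and the log2 ratio was -0.02 ± 0.02 for high dose over control and 0.04 ± 0.02 for low dose over control.

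The remaining 4 synthetases differed by less than 1.2-fold in every comparison. Iars, for isoleucine, read 7821 in control, 7537 in low dose and 7992 in high dose cells. Nars, for asparagine, read 1019 in control, 1046 in low dose and 1057 in high dose cells. Both were highest at the high dose. Hars, for histidine, read 652 in control, 662 in low dose and 609 in high dose cells. Wars, for tryptophan, read 4568 in control, 4597 in low dose and 4321 in high dose cells. These last genes were lowest at the high dose. The 2 Wars probes gave -0.03 and -0.13 for high dose over control.

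Of the 20 synthetases, 12 are reported as ATF4-induced in mouse and human cells (Aars, Cars, Eprs, Gars, Iars, Lars, Mars, Nars, Sars, Tars, Wars and Yars). Their median log2 ratio was 0.02 for high dose over control, 8 above 0 and 4 below. The other 8 had a median of -0.06, 2 above 0 and 6 below. At the low dose the medians were -0.02 and -0.04. The ratios of the 2 sets overlapped, neither set had a call against the control, and the difference between them was not tested. The split into 2 sets came from general knowledge of such studies and was not checked against a source.

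In mammalian cells 8 of the synthetases (Dars, Eprs, Iars, Kars, Lars, Mars, Qars and Rars) sit in the multisynthetase complex. At the low dose all 8 were below the control, from -0.11 (Mars) to -0.01 (Lars), with a median of -0.05, while the 12 synthetases outside the complex had a median of -0.01. None of the 8 was called. That all 8 lay below 0 depended on the scaling: with the arrays centred on the spike-in probes all 8 lay above 0 (median 0.11), and with centring on the median of the spots, normexp correction or the authors' scaling, 7 of 8 lay below. At the high dose the complex had a median of 0.02 and ran from -0.13 (Qars) to 0.19 (Dars).

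Against the control, amino acid synthesis genes had the widest range of the 3 groups, with the dim genes Gpt2 and Pycr1 at its ends. At the high dose 12 of the 14 were measured and ran from -0.35 (Pycr1) to 0.39 (Gpt2); their median was 0.02, and 6 lay on either side of 0. At the low dose the median was 0.02, with 7 above 0 and 5 below, and none was called. Without Gpt2 and Pycr1 the synthesis genes ran from -0.16 (Aldh1l2) to 0.15 (Mthfd2) for high dose over control. The synthetases ran from -0.27 to 0.19 there.

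Gpt2, mitochondrial alanine transaminase, which makes alanine from pyruvate, had the highest ratio of all members. Its measured probe (rn4 chr19:22893753-22897764, minus strand) gave spots of 55.8 and 59.8 in control cells, 74.4 and 69.0 in low dose cells, and 85.6 and 66.8 in high dose cells. The spots of either dose lay above both control spots, and the spots of the high and low dose overlapped. The log2 ratio was 0.39 ± 0.18 for high dose over control, 0.31 ± 0.18 for low dose over control and 0.08 ± 0.18 for high over low dose. The first was called at 2.18 spot errors, and the second, at 1.74, was not. A second Gpt2 probe, with 1 spot, read 7.97, 7.64 and 8.36 on the control, low dose and high dose arrays and was not well above background. The call was lost under 3 of 12 alternative settings, among them normexp background correction (0.19).

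Pycr1, the mitochondrial reductase of the last step of proline synthesis, had the lowest ratio of all members. Its probe (rn4 chr10:110032045-110032104, minus strand) gave spots of 166 and 140.4 in control cells, 129.5 and 150.4 in low dose cells, and 108 and 134 in high dose cells. Both high dose spots lay below both control spots, and the low dose spots overlapped with the others. The log2 ratio was -0.35 ± 0.13 for high dose over control, -0.13 ± 0.13 for low dose over control and -0.22 ± 0.13 for high over low dose. Centring on the spike-in probes brought the high dose value to -0.19 and ended the call. Aldh18a1, which catalyses the first steps of proline synthesis from glutamate, read 1071 in control, 1071 in low dose and 1129 in high dose cells. Its 2 probes gave -0.01 and 0.16 for high dose over control.

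Asns, asparagine synthetase and a standard ATF4 target, read 7227 in control cells, 7293 in low dose cells and 7585 in high dose cells. Its 2 high dose spots (7731 and 7443) both lay above its 2 control spots (7090.2 and 7367). The log2 ratio was 0.07 ± 0.06 for high dose over control and 0.01 ± 0.06 for low dose over control, and neither was called. Got1, cytosolic aspartate transaminase, read 1449 in control cells, 1571 in low dose cells and 1563 in high dose cells. Its ratio was 0.11 ± 0.06 for high dose over control and 0.12 ± 0.06 for low dose over control, both under 2 spot errors and under 1.2-fold.

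Serine synthesis was near the control at both doses. Phgdh, the first enzyme of serine synthesis, read 74925 in control, 74258 in low dose and 73389 in high dose cells. Psat1, the next, read 18544 in control, 19579 in low dose and 18258 in high dose cells. Psph, the last, read 2931 in control, 3116 in low dose and 3168 in high dose cells. Psph was thus lowest in the control, while Phgdh and Psat1 were lowest at the high dose. The log2 ratios for high dose over control were -0.03 ± 0.05 for Phgdh, -0.02 ± 0.05 for Psat1 and 0.11 ± 0.06 for Psph.

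The enzymes that use serine for one-carbon units were led by Mthfd2, the mitochondrial methylenetetrahydrofolate dehydrogenase. A Mthfd2 probe with 10 spots on each array had lowest, median and highest spots of 8297, 9143 and 9472 in control cells, 8425, 8916 and 9096 in low dose cells, and 10062, 10489 and 10915 in high dose cells. All 10 high dose spots lay above every spot of the other arrays, and the low dose and control spots overlapped. That probe gave 0.22 ± 0.02 for high dose over control and 0.25 ± 0.02 for high over low dose. Its other 2 probes, with 1 spot each, gave 0.04 ± 0.09 and 0.20 ± 0.09 for high dose over control. Averaged over the 3 probes, Mthfd2 had a log2 ratio of 0.15 ± 0.04 for high dose over control, under 1.2-fold, and was not called.

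Shmt2, the mitochondrial serine hydroxymethyltransferase, read 7992 in control, 8104 in low dose and 7526 in high dose cells (-0.09 ± 0.06 for high dose over control). Its cytosolic counterpart Shmt1 read 529 in control, 543 in low dose and 518 in high dose cells. Aldh1l2, a mitochondrial folate dehydrogenase, was the second lowest synthesis gene at the high dose, with 307 in control, 288 in low dose and 275 in high dose cells (-0.16 ± 0.09 for high dose over control). The 7 serine and one-carbon genes had a median of -0.03 for high dose over control and 0.02 for low dose over control.

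Cth and Cbs, the enzymes that make cysteine from homocysteine through cystathionine, were not well above background on any array. Cth read 4.61 in control, 8.41 in low dose and 5.64 in high dose cells. Cbs read 4.40 in control, 4.52 in low dose and 5.02 in high dose cells. No ratio is given for either gene.

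**Figure D2:**
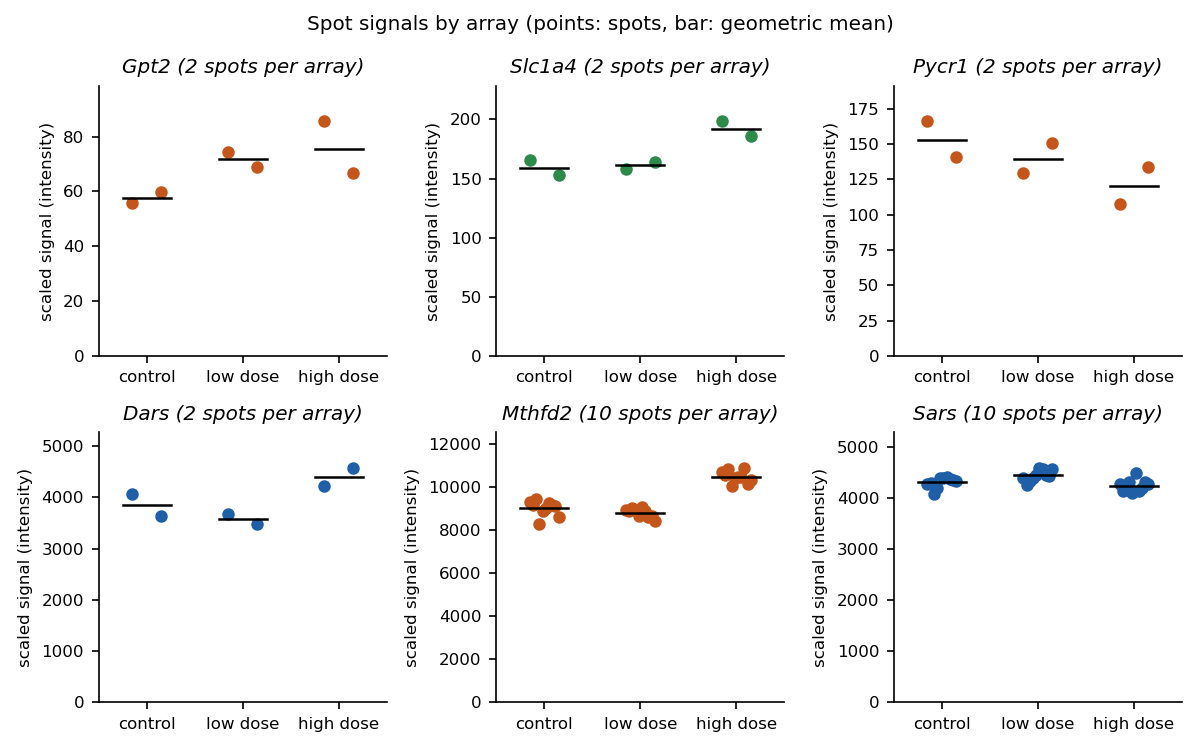
Rescaled signal of each spot on the control, low dose and high dose arrays for Gpt2, Slc1a4, Pycr1 and Dars (2 spots an array) and for Mthfd2 and Sars (10 spots an array), with a bar at the geometric mean. The 10 high dose spots of Mthfd2 (10062 to 10915) stand clear of the control spots (8297 to 9472), while those of Sars overlap.

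Of the 7 transporters, 6 were measured, and Slc1a4 was the single one called. For high dose over control their median log2 ratio was 0.02, for low dose over control -0.00, with 3 above 0 and 3 below in each. Slc1a4, which carries alanine, serine, cysteine and threonine, had spots of 165 and 153 in control cells, 158 and 164 in low dose cells and 198 and 186 in high dose cells (probe at rn4 chr14:101123891-101123950, minus strand). Both high dose spots lay above the other 4, and the control spots spanned the low dose spots. The log2 ratio was 0.27 ± 0.12 for high dose over control, 0.02 ± 0.12 for low dose over control and 0.25 ± 0.12 for high over low dose. The call against the control was lost under normexp background correction (0.22) and held under the other 11 of 12 settings.

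Slc3a2, the heavy chain that brings several amino acid exchangers to the cell surface, read 3106 in control, 3175 in low dose and 3408 in high dose cells. Its partner Slc7a5, the light chain that imports leucine and other large neutral amino acids, read 322 in control, 317 in low dose and 302 in high dose cells. For high dose over control the log2 ratio was 0.13 ± 0.06 for Slc3a2 and -0.09 ± 0.09 for Slc7a5. The 2 genes of this exchanger thus lay on opposite sides of the control at the high dose, and neither was called.

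Slc1a5, a glutamine carrier, read 1826 in control, 1708 in low dose and 1800.4 in high dose cells (-0.02 ± 0.06 for high dose over control). Slc38a2, a sodium-coupled carrier of small neutral amino acids known for its induction by amino acid shortage, read 4698 in control, 4527 in low dose and 4516 in high dose cells. Its ratio was -0.06 ± 0.05 for high dose over control and -0.05 ± 0.05 for low dose over control. Slc7a1, a cationic amino acid carrier for arginine and lysine, read 443 in control, 481 in low dose and 465 in high dose cells (0.07 ± 0.08 for high dose over control). This average hides a difference between its 2 probes. One read 2059.6 in control, 2060.4 in low dose and 2219 in high dose cells, and the other 95.3, 113 and 97.3 on those arrays. The brighter probe was thus highest at the high dose (0.11 over control) and the dimmer at the low dose (0.24 over control). Its relative Slc7a3 was not well above background on any array, with 4.31 in control, 4.44 in low dose and 4.96 in high dose cells.

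The ratios of the 3 groups of members overlapped in every comparison. For high dose over control the medians were -0.00012 for the synthetases, 0.02 for synthesis and 0.02 for transport, and for low dose over control they were -0.02, 0.02 and -0.00. Between the doses they were 0.00, -0.01 and 0.04. The plot of the groups sets them beside the other genes of the pathway.

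Of 17 mitochondrial synthetase genes 15 were measured and none was called, with a median of 0.08 for high dose over control and 0.00 for low dose over control. The first median did not keep its sign: it was -0.03 over the 11 genes with all repeat spots above background, and -0.01 without the filter on dim probes. The 3 scaffold proteins of the synthetase complex had none called, with medians of -0.05 at the high and -0.07 at the low dose. Of 19 other genes of amino acid synthesis and breakdown 14 were measured, with none called and medians of -0.04 at the high and 0.01 at the low dose. Of 19 other amino acid transporters 8 were measured against the control, with none called and medians of -0.02 at the high and -0.06 at the low dose. These lists thus held no call in any comparison in this setting. Over all genes 4.21% were called higher and 4.63% lower for high dose over control. The shares were 1.33% and 1.75% for low dose over control, and 3.8% and 3.08% for high over low dose. Quantile normalization, the authors' scaling and the brightest probe gave 1 mitochondrial synthetase called higher each for high dose over control, and spike-in centring gave 4.

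Calls were also found among the regulators of the pathway. Of 11, 10 were measured and 3 were called higher at the high dose than in the control (Ddit3, Trib3 and Cebpb), where 4.21% of all genes were. The same 3 were called higher at the high than at the low dose, and none was called at the low dose. The median of the 10 was 0.16 for high dose over control and 0.06 for low dose over control. Whether the regulators differed from the members was not tested.

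Ddit3, which encodes the stress factor CHOP, read 17528 in control, 20389 in low dose and 28884 in high dose cells. Trib3, a pseudokinase gene induced by ATF4 and CHOP, read 2481 in control, 2686 in low dose and 3849 in high dose cells. Cebpb, a dimer partner of ATF4, read 6374 in control, 6623 in low dose and 8222 in high dose cells. All 3 were thus highest on the high dose array. For high dose over control their log2 ratios were 0.72 ± 0.05 for Ddit3, 0.63 ± 0.06 for Trib3 and 0.37 ± 0.06 for Cebpb. For low dose over control Ddit3 had 0.22, Trib3 0.11 and Cebpb 0.06.

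Atf4 itself read 45724 in control cells, 47584 in low dose cells and 52599 in high dose cells. Its log2 ratio was 0.20 ± 0.02 for high dose over control and 0.06 ± 0.02 for low dose over control, under 1.2-fold in each. The array measures mRNA, and ATF4 is regulated at translation as well. Sesn2 had 0.23 ± 0.12 and Chac1 0.05 ± 0.10 for high dose over control. Atf5, a relative of ATF4, was the 1 of the 10 below 0, with -0.10 ± 0.05 for high dose over control and -0.14 ± 0.05 for high over low dose. None of these was called.

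**Figure D3:**
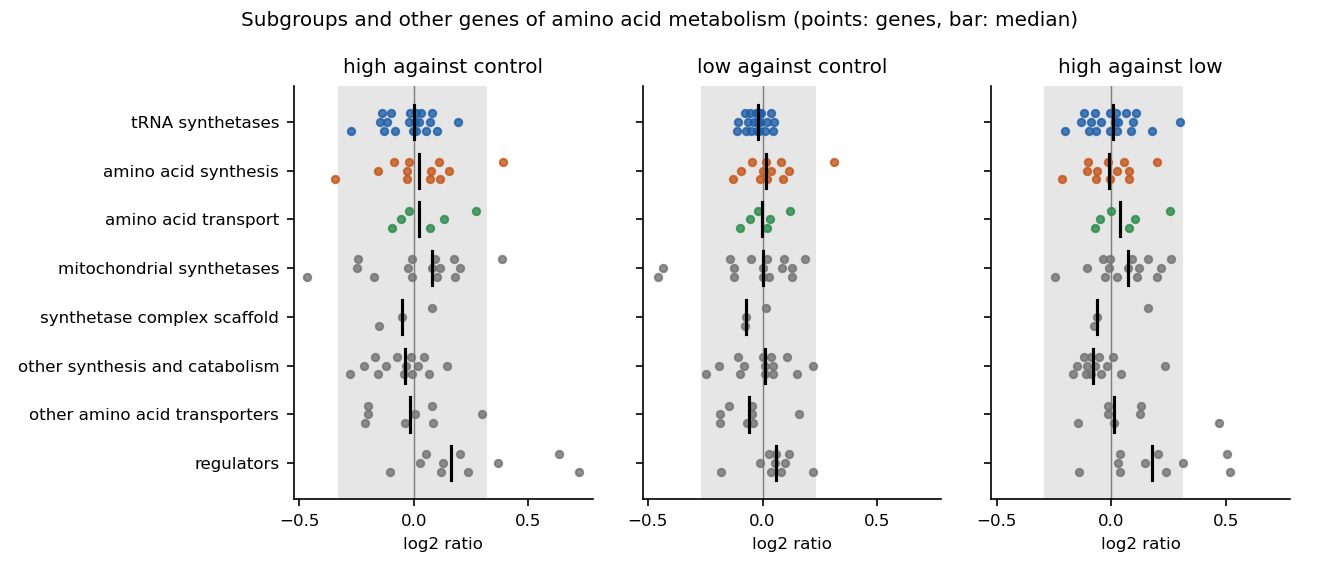
Log2 ratio of each measured gene (points) and the median (bar) for synthetases, synthesis and transport members, and for mitochondrial synthetases, scaffold, other synthesis and catabolism, other transporters and regulators, in the 3 comparisons. The grey band spans the 5th to the 95th percentile of all measured genes, and at the high dose the regulators have a median of 0.16 over the control while the 3 member groups lie between -0.00012 and 0.02.

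The response element core was then set against the ratios. Windows of 250 bases before and 50 bases after the annotated start were used for 33 of the 41 members (34 windows, 2 of them for Slc3a2), and both strands were searched. Bases outside these windows and cores other than TGATGNAA were not searched. A window without the core thus does not show that the gene lacks the element. TGATGCAA occurred in 9 of the 34 windows (26.5%), against 0.792% of all 33468 windows used. The looser core TGATGNAA, which includes it, occurred in 10 (29.4%), against 3.98% of all windows, with Slc7a1 as the addition. Of the 10 windows of synthetases reported as ATF4-induced 6 held TGATGCAA, and of the 6 windows of the other synthetases 0 did. Of 12 windows of synthesis genes 2 held it, those of Got1 and Pycr1.

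The members with TGATGCAA were no more than 1.2-fold apart from the control in 7 of 9 cases. Their median log2 ratio was 0.05 for high dose over control, with a range of -0.35 to 0.27, 6 above 0, 1 called higher (Slc1a4) and 1 called lower (Pycr1). The 22 measured members with a window and no TGATGCAA had a median of -0.02 for high dose over control, with 1 called higher (Gpt2) and 0 lower. Over all measured genes 4.21% were called higher and 4.63% lower. Slc1a4 and Pycr1 were dim, and whether calls differed with the core was not tested. At the low dose the medians were -0.02 with the core and 0.00 without it. Among synthetases alone, the 6 with the core had a median of 0.04 for high dose over control, from -0.15 (Yars) to 0.08 (Tars), and the 10 without it had -0.05. Of the 10 regulators with a window, Chac1 held TGATGCAA and Trib3 held TGATGTAA. Bases outside the windows of the regulators were not searched either.

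**Figure D4:**
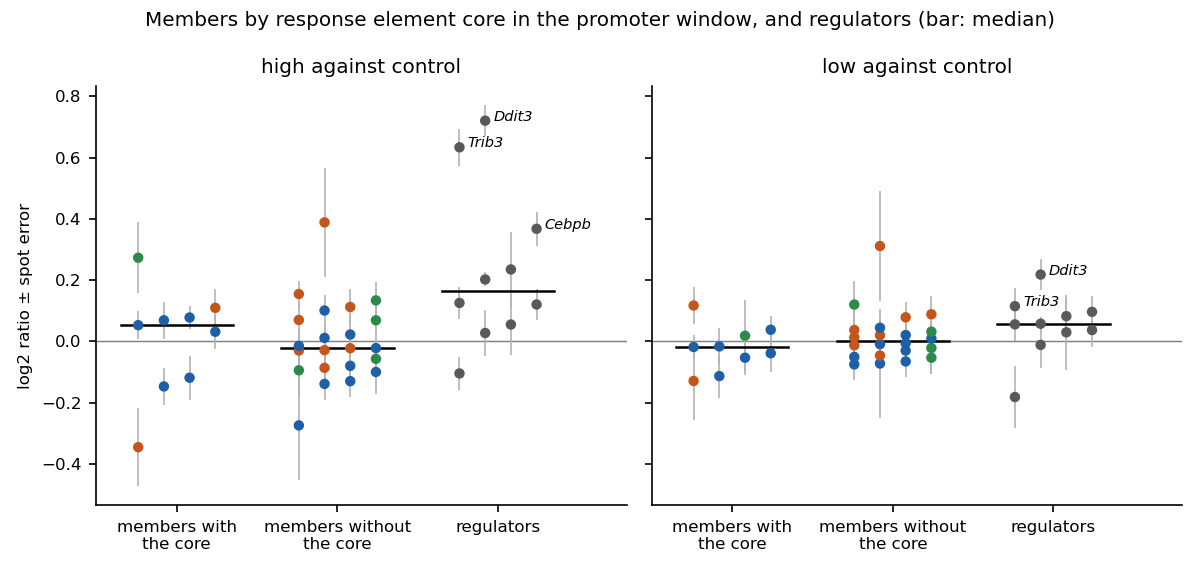
Log2 ratio of the high dose (left) and the low dose (right) over the control for members with TGATGCAA in the promoter window, members with a window and no TGATGCAA, and regulators of the pathway, with a bar at the median. At the high dose the members with the core have a median of 0.05 and lie between -0.35 and 0.27. The called regulators Ddit3, Trib3 and Cebpb lie between 0.37 and 0.72, and the other measured regulators between -0.10 (Atf5) and 0.23 (Sesn2).

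The direction of many ratios against the control rests on the scaling. The 8 usable probes for spike-in RNA had a mean log2 ratio of -0.15 for high dose over control, -0.16 for low dose over control and 0.00 for high over low dose. Centring on them moved the median of all genes to 0.15 for high dose over control and 0.16 for low dose over control. That centring adds 1 constant per comparison to every gene, so the members moved with all genes. For high dose over control it put 19 of 20 synthetases, 10 of 12 synthesis genes and 6 of 6 transporters above 0, against 10, 6 and 3 under the 75th percentile, and Yars and Farsa, given above as lower, turned to 0.01 and 0.02. With that centring 7 members were called higher at the high dose (Dars, Psph, Mthfd2, Got1, Gpt2, Slc3a2 and Slc1a4) and 0 lower, while all genes were split into 2554 higher and 122 lower calls, against 610 and 672 under the 75th percentile. All arrays lay on the same slide with 1 group at each position, so array position and dose cannot be told apart.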

How the data were processed

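Single-colour arrays were hybridised with Cy3-labelled cRNA from total RNA, 1 array per group, and samples were grouped by their treatment labels. The authors deposited scanner output, whose spot intensity was extracted, per the file headers, with Agilent Feature Extraction 10.7.3.1 (protocol GE1_107_Sep09, design 028279, probe coordinates rn4), background-subtracted within the array and not normalized between arrays. The authors also deposited a table whose values are a ratio: a column equals that intensity divided by a constant (high dose 823, low dose 849, control 823), to within 0.000123%.

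Each array's processed signals were put on a log2 scale and centred on their 75th percentile over 58717 non-control spots. Spots flagged as outliers (high dose 352, low dose 368, control 426) were left out unless all spots of a probe were flagged. Spots of a probe were averaged, a probe needed 50% of its spots well above background on both arrays, and a gene was the mean of such probes. For members with several such probes, the gene's signal is thus their geometric mean. Single-probe values are given for Mthfd2, Aldh18a1, Tars, Wars, Slc7a1 and Gpt2, and for Gars in control cells. Spot errors were pooled in 20 level bins. Genes were named through the RefSeq accession for 18438 probes (60.7%, GRCr8 table, names only) and otherwise by the files. Promoter windows came from RefSeq (GRCr8) and probe positions from the files (rn4); neither was converted to the other. The window of 1 member is not reported here.

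All members are described, with full values for those called and for the 3 highest and 3 lowest of each group; the other pathway genes are given as counts, with values for those called and for Atf4, Atf5, Sesn2 and Chac1, named after their values were seen. The members and lists were chosen with earlier results of these data known. Alternatives were centring on the median, on spike-ins or on probes well above background, quantile normalization, normexp (offset 50, limma 3.58.1 in R 4.3.3), the authors' table, other filters on dim and outlier spots, the brightest probe, another spot error and a 1.1-fold limit. Python 3.11.15 with numpy 2.4.6 and pandas 2.3.3 was used. With 1 array per group there was no p-value.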

Additional observations from a re-analysis of the deposited data

How the results depend on the processing

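Of 192 values of medians and counts under 12 alternatives, 172 stayed within the members' median spot error (0.056 log2) or 1.5 times the count, and 20 moved by more. Of 1134 values of single members 1046 stayed within their spot error and 88 moved, 72 of them with spike-in centring. No member that was called changed sign. Among all single members, called or not, 69 values changed sign, 39 of them with spike-in centring, and so did 27 of 120 medians, 5 of them with spike-in centring. Centring on spike-ins gave 7 members called higher and 0 lower for high dose over control, where 17.6% of all genes were called higher, with medians of 0.15 for synthetases, 0.18 for synthesis, 0.18 for transport and 0.15 for all members. For low dose over control it gave 3 called higher (Got1, Gpt2 and Slc7a1), where 10.6% of all genes were, with medians of 0.14, 0.18, 0.16 and 0.14 in the same order. Over all genes, higher calls then made up 95.4% of calls for high dose over control (47.6% in the main setting) and 96.3% for low dose over control (43.1%). With the 75th percentile taken over probes well above background, 2 members were called higher for high over low dose (Dars and Slc1a4). With normexp 0 members were called higher for high dose over control, and Pycr1 stayed called lower. Without the filter on dim probes 1 member was called higher for high dose over control (Slc1a4), 1 higher for low dose over control and 1 lower for high over low dose; the calls for those last comparisons were both Cth, which was not well above background. With spot errors pooled over probes with 50% of their spots well above background, 1 member was called higher for high dose over control. With a limit of 1.1-fold, 4 members were called higher and 3 lower for high dose over control (adding Dars and Mthfd2, and Yars and Farsa), and 4 higher for high over low dose (Dars, Eprs, Mthfd2 and Slc1a4).

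Across all genes, normexp gave 259 higher and 260 lower calls for high dose over control, 59 and 49 for low dose over control, and 205 and 143 for high over low dose. No filter gave 1840 and 1926, 1060 and 1726, and 1951 and 1239. The 1.1-fold limit gave 1304 and 1585, 445 and 501, and 1159 and 1210. Requiring all repeat spots above background gave 79 and 89 for low dose over control. Dars held its call between the doses under all 12 alternatives (0.29 to 0.33), Slc1a4 and Pycr1 under 11 each, and Gpt2 under 9 (0.19 to 0.54); Gpt2 was lost under normexp, without the filter and with the wider spot error. The cause was not tested. No paired analysis was possible because each group has 1 array. The number of arrays limits the precision: culture and labelling differences were not measured, and Gpt2, Slc1a4, Pycr1 and Vars were dim, with spot errors of 0.12 to 0.18.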
